A study of Mus musculus with 34 samples.

Results

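The genes described here are the conjugation enzymes of mouse liver: the UDP-glucuronosyltransferases (UGT), the sulfotransferases (SULT) and the glutathione S-transferases (GST). Members were taken by symbol, as every row of the normalized count table that begins with Ugt1, Ugt2, Ugt3, Sult, Gsta, Gstm, Gstp, Gstt, Gstz, Gsto, Gstk or Mgst. A pair of such rows is not analysed here, which left 46 of 14086 genes, made up of 17 UGT, 7 SULT and 22 GST genes. Over the 18 libraries 32 of them averaged 10 or more and were tested (12 UGT, 2 SULT and 18 GST), and 14 lay below that mean (5 UGT, 5 SULT and 4 GST). A second table of z-scores held 20 of the members (10 UGT, 2 SULT and 8 GST) among 1659 genes.

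The series follows liver tumours in mice that carry isoforms of beta-catenin, the Wnt pathway effector, with an exon skipped, and total RNA was read by strand-specific sequencing. Normalized counts covered 5 skip1 induced and 2 skip2 induced samples, named for the isoform, and 4 dN90 induced samples, which carry a beta-catenin that lacks its amino-terminal end. They also covered samples without the induced condition, called livers here: 3 with skip1 alone, 2 with skip2 alone and 2 wild type. The z-scores were compared over 4 subtype A tumours, 9 subtype B tumours and 3 samples with an actin guide and YAPS127A, an activated form of the coactivator YAP. The labels give hydrodynamic injection, a rapid tail vein injection that brings plasmids into hepatocytes, as the model for every group, and frozen tumour tissue as the source of RNA, wild type included. They do not say what "induced" adds to an isoform, which promoter drove it, or the age, sex or number of mice, and a further label field of the 4 skip2 samples names skip1, so the source label was used. Nothing says that the libraries of a group came from separate mice, and p-values cover the spread among these libraries, which may be technical.

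Conjugation makes foreign compounds, hormones, bilirubin and bile acids soluble enough to leave the liver. UGT enzymes add glucuronic acid from UDP-glucuronic acid in the endoplasmic reticulum, SULT enzymes add sulfate from the donor PAPS in the cytosol, and GST enzymes add the thiol glutathione to electrophiles. Hepatocytes carry most of this capacity, under nuclear receptors, the hepatocyte factors HNF1 and HNF4 and, for many GST genes, the antioxidant factor NRF2, and single enzymes are spread unevenly between the portal and the central part of the lobule.

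The promoters of 6 members whose values set the families apart are shown first, from 250 bases before to 50 after the start site in the RefSeq table of build GRCm38.p6. That table matched 41 of the 46 members with 50 entries. Letters in capitals mark 4 motifs searched on both strands: GTTAAT, the core of an HNF1 site, CTTTGA, the core bound by the beta-catenin partners TCF and LEF, GGAATG, the core bound by the YAP partner TEAD, and TGACNNNGC, the core of the antioxidant response element that NRF2 binds. They stand on the gene's own strand, 5′ to 3′. Ugt1a1 lies at chr1:88211709-88212008 on the plus strand, Ugt1a6a at chr1:88134559-88134858 on the plus strand, Ugt1a9 at chr1:88070529-88070828 on the plus strand, Gstp1 at chr19:4037863-4038162 on the minus strand, Gstm2 at chr3:107986371-107986670 on the minus strand and Sult1a1 at chr7:126676369-126676668 on the minus strand.
Ugt1a1: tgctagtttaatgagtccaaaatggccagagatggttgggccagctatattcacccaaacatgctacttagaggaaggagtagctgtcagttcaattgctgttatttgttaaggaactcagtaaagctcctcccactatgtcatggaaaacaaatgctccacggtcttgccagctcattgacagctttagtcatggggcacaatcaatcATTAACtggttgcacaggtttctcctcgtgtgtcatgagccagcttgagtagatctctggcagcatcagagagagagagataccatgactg
Ugt1a6a: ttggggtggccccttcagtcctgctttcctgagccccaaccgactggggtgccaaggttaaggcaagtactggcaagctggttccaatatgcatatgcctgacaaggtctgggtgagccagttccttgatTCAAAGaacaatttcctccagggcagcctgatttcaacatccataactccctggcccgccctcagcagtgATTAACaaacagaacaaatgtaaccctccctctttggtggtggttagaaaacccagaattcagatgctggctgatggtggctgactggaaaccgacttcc
Ugt1a9: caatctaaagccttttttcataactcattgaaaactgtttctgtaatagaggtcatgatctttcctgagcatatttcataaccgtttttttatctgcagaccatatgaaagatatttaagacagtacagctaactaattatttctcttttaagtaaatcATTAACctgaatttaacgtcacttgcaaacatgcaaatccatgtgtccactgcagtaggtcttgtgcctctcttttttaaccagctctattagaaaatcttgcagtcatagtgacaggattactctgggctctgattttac
Sult1a1: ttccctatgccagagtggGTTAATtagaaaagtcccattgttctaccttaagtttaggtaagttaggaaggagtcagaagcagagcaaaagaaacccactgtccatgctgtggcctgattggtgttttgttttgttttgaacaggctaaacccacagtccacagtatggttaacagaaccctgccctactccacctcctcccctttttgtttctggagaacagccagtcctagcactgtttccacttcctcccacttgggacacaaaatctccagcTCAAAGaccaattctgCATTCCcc
Gstp1: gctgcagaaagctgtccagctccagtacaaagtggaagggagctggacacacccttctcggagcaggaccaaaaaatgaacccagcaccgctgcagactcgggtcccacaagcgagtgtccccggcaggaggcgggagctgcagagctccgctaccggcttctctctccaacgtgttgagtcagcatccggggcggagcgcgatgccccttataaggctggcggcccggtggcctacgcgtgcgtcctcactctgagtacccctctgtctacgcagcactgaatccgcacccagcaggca
Gstm2: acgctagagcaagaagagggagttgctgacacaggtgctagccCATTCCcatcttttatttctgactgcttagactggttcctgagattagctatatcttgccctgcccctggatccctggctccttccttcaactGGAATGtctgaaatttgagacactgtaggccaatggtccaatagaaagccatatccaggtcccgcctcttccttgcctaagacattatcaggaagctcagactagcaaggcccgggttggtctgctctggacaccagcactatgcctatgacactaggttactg
The 3 Ugt1a promoters each held the HNF1 core on the opposite strand, read as ATTAAC, with its first letter at -41 in Ugt1a1, -50 in Ugt1a6a and -91 in Ugt1a9. Ugt1a6a held the TCF core at -120 as well. Sult1a1 held the HNF1 core at -232, the TCF core at 27 and the TEAD core at 43, and Gstm2 held the TEAD core at -207 and -114. Gstp1 held none of the 4 in this window. It does hold TGAGTCAGC, which has G in place of the C of the searched antioxidant core. Forms with that G were not searched in any promoter. Over the families, the HNF1 core was in 6 of 15 UGT, 2 of 6 SULT and 1 of 20 GST members with a promoter, against 7.10% of all 32851 promoters of the same length. The antioxidant core was in 0 of 15 UGT, 0 of 6 SULT and 4 of 20 GST members (Gsta3, Gstm5, Gstm7 and Mgst1), against 12.4% of all promoters. The TCF core was in 3 UGT, 3 SULT and 1 GST members, against 16.003%, and the TEAD core in 2 UGT, 3 SULT and 3 GST members, against 14.7%. The printed matches do not overlap each other. A member counted if any of its entries held the motif, while the share of all promoters counts single entries. This favours members with several entries. A match is a description of letters, not of binding.

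Estimated reads per library lay between 361772 and 933146, so a normalized count near 1 is about 1 read and low members carry large errors. Alb, Ttr and Apoa1, genes that define hepatocytes, were detected in every library. Skip1 induced replicates 1 and 2 stood apart from the other 3 on the first principal component (4.81 and -7.48, against 14.3 to 24.7, with the livers between -45.0 and -36.2), so results with skip1 induced samples are also given without both. That component held 49.9% of the variance and separated all induced libraries from all livers. Groups that do not overlap are noted below for single members, and the share of all genes without overlap was not counted. Differences below are on the log2(normalized count + 1) scale, which understates changes of low genes, and come from limma, with adjustment over all 6592 genes tested and a call at an adjusted p under 0.05. In the bulk samples, fewer hepatocytes and less RNA per hepatocyte cannot be told apart.

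The first question was how the families differed between induced samples and livers without the induced condition. UGT genes were lower and had no member called higher. In skip1 induced samples over skip1 alone, 8 of 12 UGT genes fell (all 6592 genes: 8.18% lower, 6.55% higher). In skip2 induced samples over skip2 alone it was 7 of 12 (8.42% lower, 6.52% higher), and in dN90 induced samples over the 3 liver groups averaged it was 9 of 12 (19.9% lower, 17.6% higher). SULT genes gave 1 call each time, a rise of Sult1a1. Among 18 GST genes, 1 rose in each comparison, Gstm2, and 4, 4 and 9 fell. These comparisons share livers, since the dN90 reference includes those with either isoform alone.

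The UGT median difference was -0.91 in skip1 induced, -1.25 in skip2 induced and -1.53 in dN90 induced samples, beside -0.02, -0.06 and 0.01 for all genes, and it was -0.77, -1.08 and -1.41 under upper quartile scaling and -0.65, -1.04 and -1.24 under quantile scaling. With each library scaled to its total of estimated reads (voom) it was -0.44, -0.66 and -0.98, with 3 of 12 UGT genes above 0 in skip1 and dN90 induced samples and none in skip2 induced samples. The GST median was -0.51, -0.50 and -0.71, but with total-read scaling it was 0.01, 0.08 and -0.16, with the median of all genes then at 0.44, 0.53 and 0.55. That scaling called 1229 genes higher and 208 lower in skip1 induced samples, against 432 and 539 in the normalized counts, 1374 and 249 in skip2 induced samples, against 430 and 555, and 3062 and 506 in dN90 induced samples, against 1158 and 1313. Upper quartile scaling called 593 and 388, 554 and 410, and 1467 and 1074 in the same order, and quantile scaling 398 and 303, 436 and 341, and 1162 and 1134. With voom the UGT calls were 5, 5 and 9 lower with none higher, and the GST calls were 3, 3 and 3 higher and 3, 3 and 5 lower. Without skip1 induced replicates 1 and 2 all 14 calls in skip1 induced samples held and 3 were added, all lower, in Gstz1, Sult1d1 and Ugt1a6b.

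Summed over a family, UGT members made up 0.190% to 0.278% of all normalized counts in skip1 induced, 0.198% to 0.204% in skip2 induced and 0.136% to 0.224% in dN90 induced libraries, against 0.284% to 0.347% over the livers. SULT members made up 0.0385% to 0.0478%, 0.0825% and 0.0749% to 0.127% in the induced groups in the same order, against 0.0188% to 0.0307% over the livers, most of it Sult1a1. GST members made up 0.765% to 0.939%, 0.670% to 0.698% and 0.516% to 0.693%, against 0.884% to 1.21% over the livers, so that skip1 induced libraries overlapped the livers in GST share and in no other family.

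Single libraries carried part of the calls. Without skip1 alone replicate 3, 6 of the 14 calls in skip1 induced samples held and Gsto1, Mgst1, Sult1a1, Ugt1a1, Ugt1a6a, Ugt2a3, Ugt2b36 and Ugt3a1 were lost, and without skip1 alone replicate 2, 10 held. Without skip2 induced replicate 1, 8 of 13 calls in skip2 induced samples held and Gsto1, Gstz1, Ugt2a3, Ugt2b36 and Ugt3a2 were lost, 9 held without skip2 alone replicate 1, 10 without skip2 alone replicate 2 and 12 without skip2 induced replicate 2. Of 20 calls in dN90 induced samples, 17 to 20 held without any 1 library, and Gstk1, Gstp2 and Gstt1 were those lost. No sign was reversed.

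Hepatocyte markers fell alongside. Of 7 tested, 5 fell in skip1 induced, 4 in skip2 induced and 5 in dN90 induced samples, and none rose. Their summed normalized count (7 of 8 in the table) was 12176 to 44202 in skip1 induced, 26020 to 28839 in skip2 induced and 11917 to 16322 in dN90 induced samples, against 63566 to 66716 with skip1 alone, 63713 to 64983 with skip2 alone and 49028 to 51599 in wild type livers. Most of this sum was Alb, at 8019 to 35386 in skip1 induced samples and 36733 to 54545 over the livers. Apoa1, in contrast, was at 2033 to 2901 in dN90 induced samples and 2102 to 2892 over the livers. Of 6 fibroblast and stellate markers tested, the collagen genes Col1a1, Col1a2 and Col3a1 rose in all 3 comparisons, while Dcn fell in skip2 (-1.39) and dN90 induced samples (-1.30) and Reln in dN90 induced samples (-1.26). Of the bile duct markers 1 was tested, Spp1, which rose in all 3, at 157 to 397, 388 to 456 and 71.5 to 632 in the induced groups in the same order, against 3.33 to 26.6 over the livers. It made up most of the summed bile duct markers (6 of 7 in the table), 174 to 412, 411 to 477 and 81.1 to 669.7, against 8.74 to 35.2, and the other 5 summed to 7.75 to 37.4 over the induced libraries, against 4.67 to 14.5 over the livers, where Krt19 and Epcam were at 0 with skip1 alone, Krt19, Krt7 and Sox9 with skip2 alone, and Krt7 and Epcam in wild type. Of 6 endothelial markers none was called in skip1 or skip2 induced samples by limma (0 and 1 had an unadjusted p under 0.05), and Clec4g (-1.82) and Kdr (-0.68) fell in dN90 induced samples. Macrophage markers rose in 3, 1 and 1 of 6 cases and 1, Clec4f, fell in dN90 induced samples (-0.84), at sums of 265 to 424, 352 to 399 and 186 to 326, against 196 to 287 over the livers. The part of these cells in the results was not tested.

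**Figure D1:**
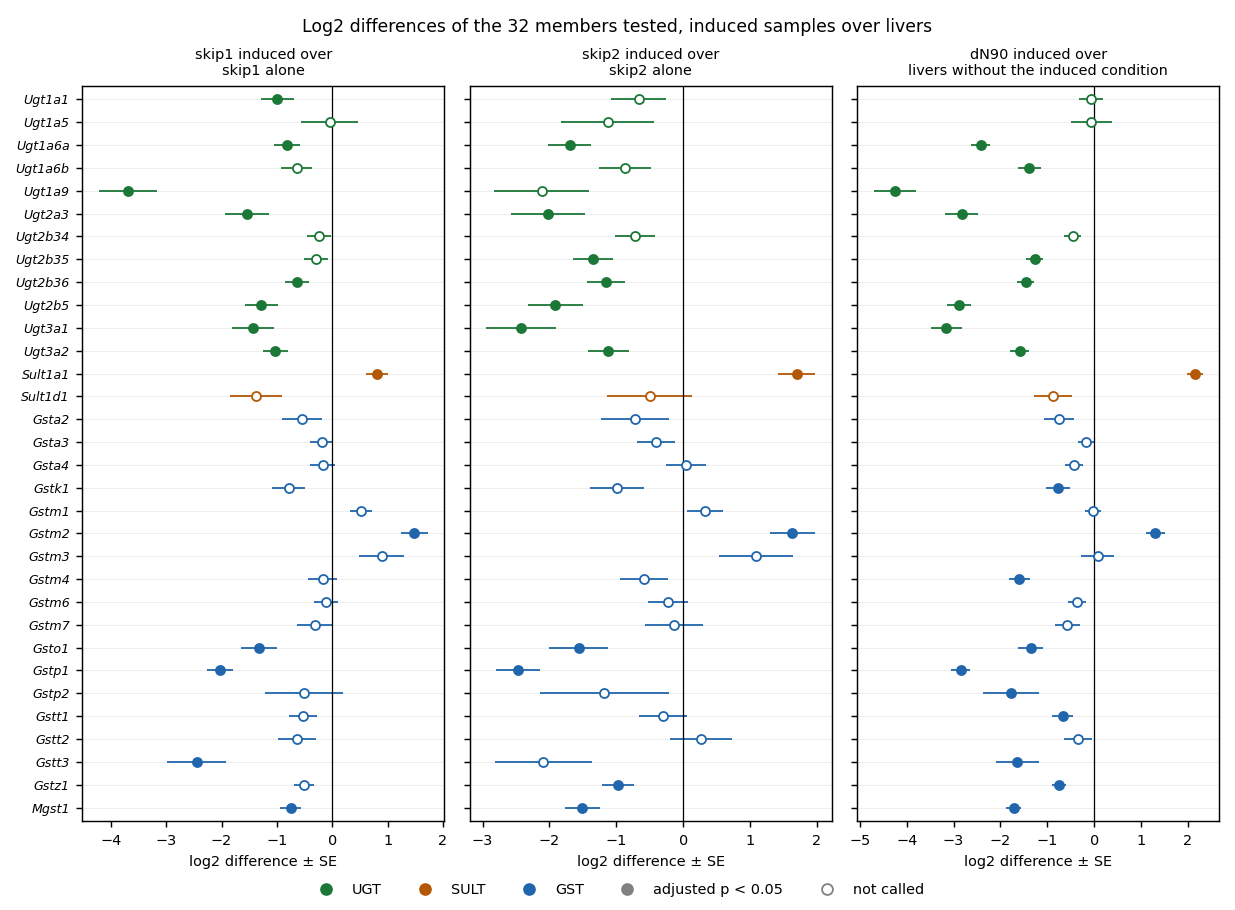
Log2 differences with their SE (horizontal bars) for the 32 members tested, in skip1 induced, skip2 induced and dN90 induced libraries over livers. Filled points passed an adjusted p of 0.05. All 12 UGT points lie left of 0 in each panel (with total-read scaling 9, 12 and 9 of 12 do), while Sult1a1 and Gstm2 are the filled points to the right.

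Among the UGT2 genes, Ugt2b5, a main UGT2B enzyme of mouse liver, was at 225, 291, 141, 183 and 171 in skip1 induced, 118 and 129.9 in skip2 induced and 106, 83.7, 60.2 and 28.8 in dN90 induced samples. The livers gave Ugt2b5 values of 462, 437 and 546 with skip1 alone, 465.9 and 469.7 with skip2 alone and 470.1 and 462 in wild type. Every induced library lay below every liver, with dN90 induced replicate 4 the lowest. Its difference was -1.28 (SE 0.30, adjusted p = 0.00588) in skip1 induced, -1.91 (SE 0.41, adjusted p = 0.00307) in skip2 induced and -2.89 (SE 0.26, adjusted p = 1.98e-08) in dN90 induced samples. Without skip1 induced replicates 1 and 2 the first was -1.54, and with quantile scaling it was not called. The second was -1.31 with either quantile or total-read scaling. Of its 50-base stretches 41.7% also occur in other genes, most of them in Ugt2b38, so its reads may include theirs.

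Ugt2a3, whose human counterpart acts on bile acids, was at 72.1, 112, 37.2, 39.7 and 37.3 in skip1 induced, 31.3 and 41.7 in skip2 induced and 33.03, 40.8, 13.8 and 7.95 in dN90 induced samples. The livers gave Ugt2a3 values of 138, 173 and 165 with skip1 alone, 159.5 and 140.1 with skip2 alone and 147 and 121 in wild type. Skip1 induced replicate 2 came closest to the livers, and no induced library reached them. Ugt2a3 fell by 1.54, 2.02 and 2.83 on the log2 scale in skip1, skip2 and dN90 induced samples (adjusted p = 0.0135, 0.0164 and 1.91e-06), and the call in skip2 induced samples was lost without either skip2 alone replicate or without skip2 induced replicate 1.

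Ugt2b35, a further UGT2B gene, was at 68.9, 98.1, 102, 104 and 91.6 in skip1 induced, 79.1 and 48.8 in skip2 induced and 56.6, 54.1, 67.7 and 46.7 in dN90 induced samples. Its livers read 132, 84.0 and 130.001 with skip1 alone, 172 and 148 with skip2 alone and 163 and 119 in wild type. Skip1 induced and skip1 alone values overlapped, at -0.29 (SE 0.22, adjusted p = 0.408), while skip2 and dN90 induced libraries lay below all livers, at -1.35 (SE 0.30, adjusted p = 0.00387) and -1.27 (SE 0.19, adjusted p = 1.92e-05). The call in skip2 induced samples was lost without skip2 induced replicate 2 and with total-read scaling. Ugt2b34, one of the 3 UGT genes with the highest means, was at 211, 197, 131, 185 and 154 in skip1 induced, 159 and 145 in skip2 induced and 230.4, 119, 182 and 122 in dN90 induced samples. The livers gave Ugt2b34 values of 232, 189 and 199 with skip1 alone, 234 and 268 with skip2 alone and 214 and 184 in wild type. Skip1 and dN90 induced libraries overlapped the livers, both skip2 induced ones lay below them, and no comparison was called (adjusted p = 0.494, 0.114 and 0.058). Ugt2b36 fell in all 3 (-0.64, -1.16 and -1.46), but with total-read or quantile scaling only in dN90 induced samples, and its call in skip1 induced samples was lost in 6 of 8 fits that left out 1 library.

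Ugt3a1, which in humans transfers N-acetylglucosamine rather than glucuronic acid, was at 23.7, 43.5, 8.36, 14.4 and 30.9 in skip1 induced, 10.1 and 13.1 in skip2 induced and 7.87, 6.12, 3.76 and 6.95 in dN90 induced samples. The livers gave Ugt3a1 values of 37.8, 57.5 and 89.5 with skip1 alone, 62.4 and 70.0 with skip2 alone and 62.3 and 58.2 in wild type. Skip1 induced replicate 2 lay above skip1 alone replicate 1, and no skip2 or dN90 induced library reached a liver. The difference was -1.43 (SE 0.38, adjusted p = 0.0146), -2.42 (SE 0.52, adjusted p = 0.00324) and -3.16 (SE 0.33, adjusted p = 2.01e-07) in skip1, skip2 and dN90 induced samples. Ugt3a2, its neighbour on chromosome 15, fell by 1.03, 1.12 and 1.59. The Ugt3a2 call in skip2 induced samples was lost with quantile scaling and with total-read scaling, which gave -0.52.

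The Ugt1a genes lie in 1 locus on chromosome 1 (88055388 to 88219004, GENCODE on mm10). There, 7 members have first exons of their own and share at least 3 exons of 440 bases. These 3 have the same start and end in all 7, and exons whose annotated start or end differs were not counted. Of 2175 stretches of 50 bases in Ugt1a1, 58.2% also occur in Ugt1a2, which is more than these 3 exons hold. Between 52.1% (Ugt1a6a) and 79.8% (Ugt1a6b) of the 50-base stretches of Ugt1a1, Ugt1a6a, Ugt1a6b and Ugt1a9, the 4 best measured Ugt1a members, also occur in another gene. Reads may therefore be split between these genes, and their values are uncertain. Ugt1a9, a phenol-conjugating enzyme, was at 3.23, 6.48, 3.72, 1.81 and 2.13 in skip1 induced, 1.84 and 9.53 in skip2 induced and 3.15, 0, 2.51 and 0 in dN90 induced samples. The livers gave Ugt1a9 values of 51.0, 54.1 and 55.4 with skip1 alone, 31.2 and 16.5 with skip2 alone and 41.9 and 35.7 in wild type. All 11 induced libraries were below 10 and all livers above 16, with skip2 alone replicate 2 the lowest liver. The difference was -3.70 (SE 0.52, adjusted p = 8.78e-05) in skip1 induced and -4.25 (SE 0.45, adjusted p = 2.57e-07) in dN90 induced samples, and -2.12 (SE 0.71, adjusted p = 0.0501) in skip2 induced samples, above the threshold. Total-read scaling called that last one too (-1.88). Values this low depend on the pseudocount: with 5 in place of 1 the differences in skip1 and dN90 induced samples were -2.81 and -2.73, and quantile scaling gave -4.33 in skip1 induced samples.

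Ugt1a6a, which conjugates small phenols, was at 54.9, 59.2, 40.9, 46.9 and 50.04 in skip1 induced, 23.4 and 31.0 in skip2 induced and 19.7, 23.5, 10.03 and 11.9 in dN90 induced samples. Its livers read 83.9, 86.3 and 97.0 with skip1 alone, 95.9 and 83.8 with skip2 alone and 88.4 and 76.5 in wild type. The induced groups did not overlap with the livers, and skip1 induced libraries were all above skip2 and dN90 induced ones. Ugt1a6a fell to means of 50.4 ± 7.08 (SD, n = 5), 27.2 ± 5.32 (n = 2) and 16.3 ± 6.35 (n = 4), against 89.0 ± 6.97 (n = 3), 89.9 ± 8.61 (n = 2) and 82.4 ± 8.41 (n = 2), which is -0.82 (SE 0.23), -1.70 (SE 0.32) and -2.42 (SE 0.20) on the log2 scale. The first of these was not called with total-read or quantile scaling or without any 1 of skip1 alone replicates 2 and 3 and skip1 induced replicate 3. Ugt1a6b, a close copy, was called only in dN90 induced samples (-1.39).

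Ugt1a1, the enzyme that conjugates bilirubin, kept another order. It was at 149.6, 209, 70.6, 93.9 and 80.9 in skip1 induced, 165 and 269 in skip2 induced and 278, 244, 297 and 222 in dN90 induced samples. The livers gave Ugt1a1 values of 248, 149.6 and 294 with skip1 alone, 319 and 352 with skip2 alone and 306 and 229 in wild type. Skip1 induced replicates 3 to 5 were below every liver, replicates 1 and 2 reached the level of skip1 alone replicate 2, and dN90 induced libraries lay within the range of the livers. The difference was -0.99 (SE 0.30, adjusted p = 0.0284) in skip1 induced, -0.67 (SE 0.41, adjusted p = 0.30) in skip2 induced and -0.06 (SE 0.26, adjusted p = 0.867) in dN90 induced samples, where it was 0.05 to 0.49 under the 3 other scalings and never called. The call in skip1 induced samples was lost without skip1 alone replicate 1 or 3, without skip1 induced replicate 3, 4 or 5, and with quantile or total-read scaling, and the difference was -1.44 without replicates 1 and 2. Ugt1a5 was not called in any of the 3. Per kb of its longest coding transcript, Ugt2b5 was the highest UGT in skip1 induced samples, at 108.9 ± 31.3 normalized counts, and in all liver groups, at 259 with skip1 alone. Ugt1a1 was the highest in skip2 induced samples (97.5 ± 32.9) and dN90 induced samples (117 ± 15.3), against 66.6 ± 4.63 and 37.5 ± 17.8 for Ugt2b5.

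**Figure D2:**
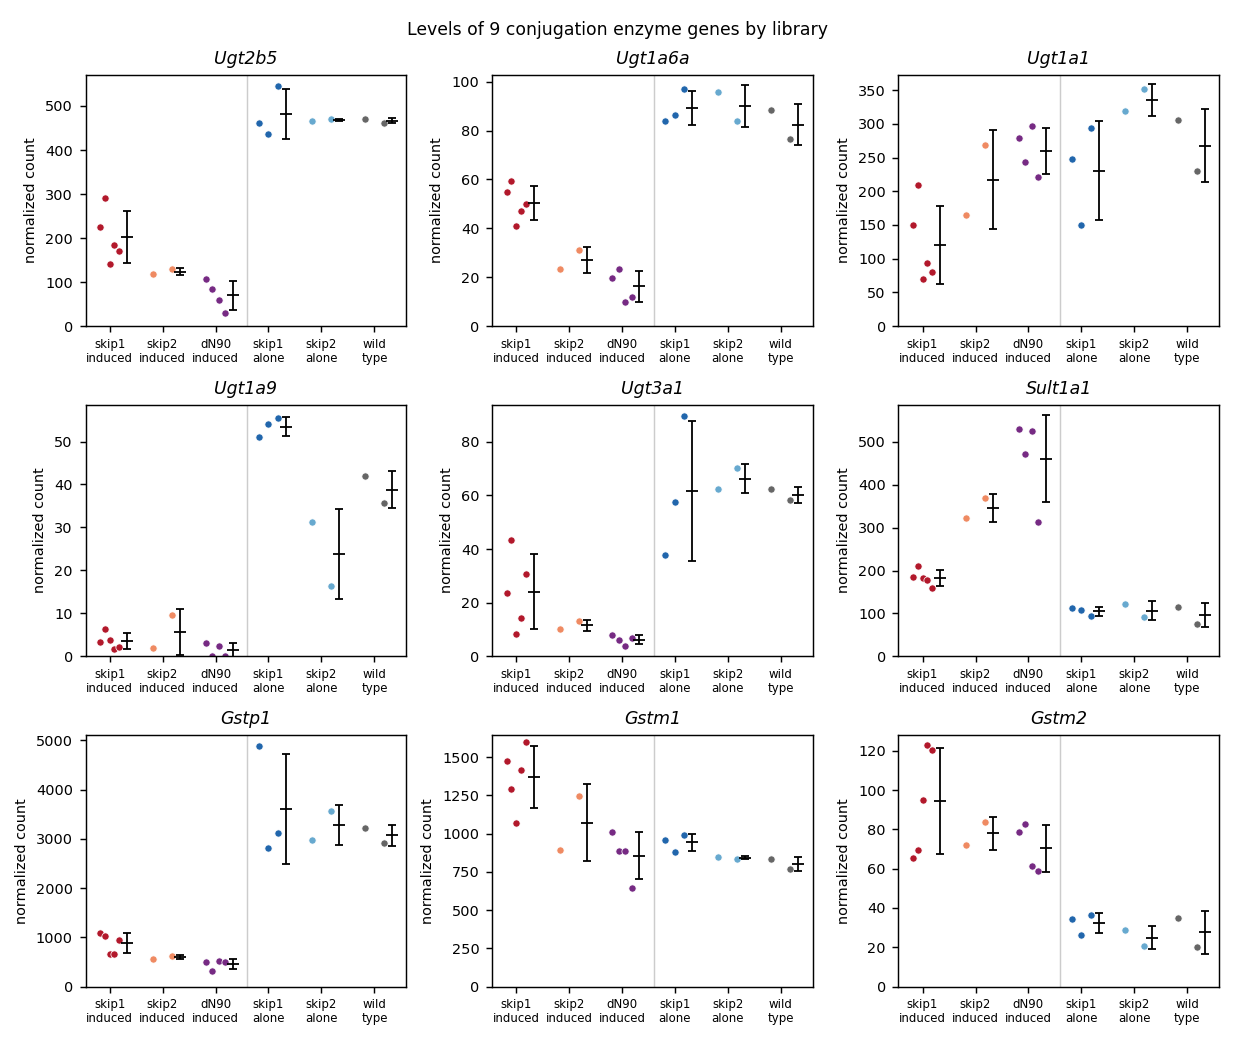
Normalized counts of 9 members in each library (points) with the group mean and SD (bars), on linear axes. Induced groups are left of the grey line. Ugt2b5, Ugt1a6a, Ugt1a9 and Gstp1 have every induced library below every liver, Sult1a1 and Gstm2 have every induced library above, and Ugt1a1 overlaps. The share of all genes that separate in this way was not counted.

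Sult1a1, the phenol sulfotransferase (chromosome 7, 126672865 to 126676432), ran against the UGT genes. It was at 186, 211, 183, 178 and 159.7 in skip1 induced, 322 and 369 in skip2 induced and 530.1, 472, 527 and 314 in dN90 induced samples. The livers gave Sult1a1 values of 113, 107 and 93.8 with skip1 alone, 123 and 90.6 with skip2 alone and 116 and 76.5 in wild type. Every induced library lay above every liver, and skip1 induced libraries were below all skip2 and dN90 induced ones. The rise was 0.80 (SE 0.20, adjusted p = 0.0105) in skip1 induced, 1.70 (SE 0.28, adjusted p = 0.000261) in skip2 induced and 2.15 (SE 0.17, adjusted p = 5.98e-09) in dN90 induced samples, which is 1.74-, 3.25- and 4.43-fold. It kept its direction under the 3 other scalings, at 2.305 in skip2 induced samples with total-read scaling, was 0.72 without skip1 induced replicates 1 and 2, and was not called in skip1 induced samples without skip1 alone replicate 3.

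Sult1d1, which sulfates catecholamines in mice, was at 17.2, 22.2, 12.1, 5.42 and 5.32 in skip1 induced, 27.6 and 25.6 in skip2 induced and 43.3, 28.6, 15.1 and 6.95 in dN90 induced samples. The livers gave Sult1d1 values of 28.0, 39.1 and 23.4 with skip1 alone, 40.5 and 35.7 with skip2 alone and 58.9 and 29.1 in wild type. Skip1 induced libraries lay below those with skip1 alone, both skip2 induced libraries lay below those with skip2 alone, and dN90 induced libraries overlapped the livers. The differences, -1.38 (SE 0.47, adjusted p = 0.0519), -0.50 (SE 0.64, adjusted p = 0.664) and -0.87 (SE 0.40, adjusted p = 0.0954) in skip1, skip2 and dN90 induced samples, were not called, but without skip1 induced replicates 1 and 2 the first was called at -1.91 (adjusted p = 0.00764). The other 5 SULT genes had means below 10 and were left out of this fit. The highest of them, Sult1b1, which acts on thyroid hormone, was at 0, 1.85, 0.929, 0 and 2.13 in skip1 induced, 1.84 and 1.79 in skip2 induced and 0.787, 1.02, 1.26 and 0.994 in dN90 induced samples. Its livers read 3.29, 4.61 and 1.07 with skip1 alone, 8.10 and 4.12 with skip2 alone and 7.93 and 9.98 in wild type. Values of this size are a few reads, and skip1 alone replicate 3 was as low as induced libraries. Sult5a1 was listed at 0 in 8 of 11 induced libraries and reached 3.70 in the others, against 1.16 to 10.99 in the 7 livers. Sult1c2, Sult2a2 and Sult6b1 did not exceed 4.53 in any library. With no filter on the mean, limma called Sult1b1 (-1.65, SE 0.42, adjusted p = 0.00479) and Sult5a1 (-2.51, SE 0.49, adjusted p = 0.000378) lower in dN90 induced samples and Sult6b1 higher (adjusted p = 0.0344), where it was at 0.787, 2.04, 0 and 3.97 and all 7 livers listed it at 0. None of the 5 was called in skip1 or skip2 induced samples (2 and 2 had an unadjusted p under 0.05).

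GST genes were led by Gstp1, the pi class enzyme of male mouse liver (chromosome 19, 4035407 to 4037985). It was at 1083, 1036, 668, 652 and 941 in skip1 induced, 562 and 619 in skip2 induced and 497, 317, 527 and 507 in dN90 induced samples. The livers gave Gstp1 values of 4882, 2814 and 3112 with skip1 alone, 2986 and 3563 with skip2 alone and 3224 and 2913 in wild type. The highest induced library, skip1 induced replicate 1, was below the lowest liver, and skip1 alone replicate 1 stood above the other livers. The difference was -2.03 (SE 0.24, adjusted p = 1.57e-05), -2.47 (SE 0.33, adjusted p = 3.74e-05) and -2.85 (SE 0.21, adjusted p = 1.52e-09) in skip1, skip2 and dN90 induced samples, a 4.08-, 5.52- and 7.20-fold fall. Quantile scaling gave falls of 2.26-, 2.39- and 3.72-fold, all called, and total-read scaling 3.63-fold in skip2 induced samples. It was -2.23 in skip1 induced samples without replicates 1 and 2. Of the 50-base stretches of Gstp1, 33.7% also occur in Gstp2, so some reads may belong to that gene, whose own values lay between 0 and 52.6. Of the stretches of Gstp2, 54.3% occur in other genes and 49.1% in Gstp1. Reads of Gstp1 may therefore be counted in Gstp2, and the low values of Gstp2 are uncertain.

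Mgst1, the membrane-bound GST with peroxidase activity, was at 303, 439.8, 358, 269 and 274 in skip1 induced, 205 and 246 in skip2 induced and 225, 164, 167 and 182 in dN90 induced samples. The livers gave Mgst1 values of 535, 484 and 621 with skip1 alone, 679 and 605 with skip2 alone and 621 and 653 in wild type. All induced libraries were below all livers, skip1 induced replicate 2 by the least. Mgst1 fell by 0.75, 1.51 and 1.72 on the log2 scale in skip1, skip2 and dN90 induced samples (adjusted p = 0.0113, 0.000496 and 5.92e-08), and in skip1 induced samples it was not called with total-read or quantile scaling, nor in skip2 induced samples with quantile scaling (-0.73), where total-read scaling gave -0.91.

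Gstz1, the maleylacetoacetate isomerase of tyrosine breakdown, was at 123, 158, 119, 98.8 and 117 in skip1 induced, 90.6 and 109 in skip2 induced and 109, 119, 125 and 101 in dN90 induced samples. The livers gave Gstz1 values of 163, 186 and 173 with skip1 alone, 205 and 188 with skip2 alone and 225 and 183 in wild type. No induced library reached a liver, and skip1 induced replicate 2 came closest. It was called in skip2 induced (-0.97, SE 0.24, adjusted p = 0.00863) and dN90 induced samples (-0.75, SE 0.15, adjusted p = 0.000606) and not in skip1 induced samples (-0.51, SE 0.18, adjusted p = 0.0552), where it was -0.64 (adjusted p = 0.0181) without replicates 1 and 2. Neither call held with total-read scaling, nor the one in skip2 induced samples with quantile scaling. Gstt1, a theta class enzyme, was at 52.5, 70.2, 40.3, 49.9 and 57.7 in skip1 induced, 36.4 and 74.9 in skip2 induced and 61.4, 45.3, 44.9 and 34.5 in dN90 induced samples. Its livers read 60.6, 71.0 and 107 with skip1 alone, 53.9 and 77.4 with skip2 alone and 88.4 and 69.4 in wild type. The groups overlapped, and the fall in dN90 induced samples (-0.67, SE 0.22, adjusted p = 0.0236) was lost with total-read scaling, quantile scaling or depth as a covariate and without any 1 of 4 libraries, among them dN90 induced replicates 3 and 4.

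Gsto1, a thioltransferase, fell in all 3 comparisons (-1.32, -1.56 and -1.36). Gstt3, a theta class gene, fell in skip1 induced (-2.45, and -3.13 without replicates 1 and 2) and dN90 induced samples (-1.64). Its lowest value, 0.931 in skip1 induced replicate 3, is about 1 read. The Gstt3 call in dN90 induced samples was lost with depth as a covariate and with wild type as the only reference (-1.19, limma adjusted p = 0.182). In dN90 induced samples Gstm4 (-1.59), Gstp2 (-1.77) and Gstk1, of mitochondria and peroxisomes (-0.78), fell as well. Neither Gstp2 nor Gstk1 was called with total-read scaling or with wild type as the only reference, nor Gstk1 with depth as a covariate. Gstp2 was also lost without wild type replicate 2, skip2 alone replicate 2 or dN90 induced replicate 4 (-1.11). Gstk1 was lost without wild type replicate 1, skip2 alone replicate 2 or dN90 induced replicate 3 or 4. Reads of Gstp1 may be counted in Gstp2, as given above. Gsta2, Gsta4, which conjugates the lipid peroxidation product hydroxynonenal, Gstm3, Gstm6, Gstm7 and Gstt2 were called in none of the 3, although total-read scaling called Gstm3 higher in skip1 and skip2 induced samples.

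Gstm2, a mu class enzyme (chromosome 3, 107981702 to 107986453), was the GST gene that rose. It was at 65.6, 69.4, 94.7, 123 and 120.3 in skip1 induced, 72.2 and 84.0 in skip2 induced and 78.7, 82.6, 61.5 and 58.6 in dN90 induced samples. The livers gave Gstm2 values of 34.5, 26.5 and 36.2 with skip1 alone, 28.9 and 20.6 with skip2 alone and 35.1 and 19.9 in wild type. The lowest induced library, dN90 induced replicate 4, was above the highest liver. The rise was 1.48 (SE 0.25, adjusted p = 0.000492), 1.63 (SE 0.34, adjusted p = 0.00238) and 1.31 (SE 0.21, adjusted p = 5.7e-05), 1.77 in skip1 induced samples without replicates 1 and 2, and 2.23 in skip2 induced samples with total-read scaling. Gstm1, the most abundant mu class gene, was at 1475, 1289, 1070.0, 1413 and 1597 in skip1 induced, 894 and 1248 in skip2 induced and 1009.9, 886, 886 and 645 in dN90 induced samples. The livers gave Gstm1 values of 960.3, 880.1 and 989 with skip1 alone, 849.7 and 836 with skip2 alone and 831 and 769.6 in wild type. Skip1 and skip2 induced libraries were above their own livers and dN90 induced libraries overlapped them. The differences, 0.53 (SE 0.20, adjusted p = 0.0814), 0.33 (SE 0.27, adjusted p = 0.48) and -0.02 (SE 0.17, adjusted p = 0.925) in skip1, skip2 and dN90 induced samples, were not called, while total-read and quantile scaling called Gstm1 higher in all 3, and upper quartile scaling in skip1 induced samples.

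Gsta3, the alpha class enzyme that detoxifies aflatoxin epoxide in mice, was at 614, 880.1, 611, 463 and 614 in skip1 induced, 721 and 623 in skip2 induced and 841, 702, 698 and 560.4 in dN90 induced samples. The livers gave Gsta3 values of 599.7, 757 and 796 with skip1 alone, 955 and 826 with skip2 alone and 775 and 718 in wild type. Skip1 and dN90 induced libraries overlapped the livers, both skip2 induced libraries lay below those with skip2 alone, and no comparison was called (-0.19, -0.41 and -0.17), but with quantile or total-read scaling Gsta3 was called higher in dN90 induced samples.

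The make-up of the GST family was taken within each library, where a scaling factor cancels out. Per kb of the longest coding transcript, Gstp1 made up 27.2% to 36.2% of the family in skip1 induced, 26.1% to 27.9% in skip2 induced and 17.9% to 31.5% in dN90 induced samples, against 60.6% to 73.3% with skip1 alone, 60.2% to 65.6% with skip2 alone and 62.3% to 63.4% in wild type livers. Gstm1 made up 26.7% to 37.6%, 28.3% to 33.5% and 25.5% to 31.9% in the induced groups in the same order, against 9.18% to 12.3%, 9.81% to 10.9% and 10.4% to 10.5% in the liver groups in the same order. No induced library overlapped a liver in either share. Shares of 1 total depend on each other, and a larger share need not be a higher level. Gstm1 averaged 664 per kb in dN90 induced samples, against 732 with skip1 alone, 654 with skip2 alone and 621 in wild type. Gsta3 made up 10.9% to 22.4% over the induced libraries and 5.07% to 10.8% over the livers. Gstp1 was first per kb in all liver groups, while in skip1 induced samples it was level with Gstm1, at 1067 ± 249 and 1062 ± 156 normalized counts per kb. Gstm1 was first in skip2 induced samples, at 831 ± 194 against 719 ± 49.2 for Gstp1, and in dN90 induced samples, at 664 ± 119 against 563 ± 118, gaps no larger than the SD of Gstm1.

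**Figure D3:**
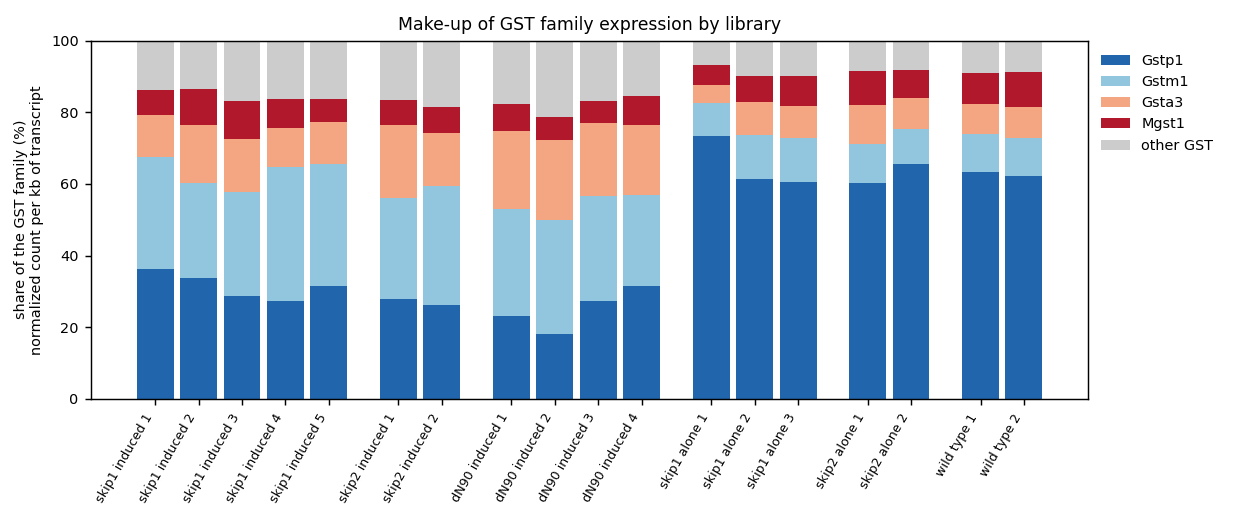
Share of the summed GST family signal per kb of transcript (%) in each library, with 4 genes and the other 18 GST genes stacked to 100%. Gstp1, the bottom segment, is 17.9% to 36.2% in induced libraries and 60.2% to 73.3% in livers, and Gstm1 above it is 25.5% to 37.6% and 9.18% to 12.3%.

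The second question was how the induced groups differed from each other, in comparisons that share samples. In skip1 over dN90 induced samples, 12 of 32 members were called (4.63% of all genes), 10 higher (3.17%) and 2 lower (1.46%). UGT genes made up 6 of those higher, and the median UGT difference was 0.76, beside -0.02 for all genes. Ugt1a6a (1.64, SE 0.22, adjusted p = 3.94e-05), Ugt3a1 (1.65, SE 0.35, adjusted p = 0.00556) and Ugt2b5 (1.63, SE 0.27, adjusted p = 0.000573) were higher in skip1 induced samples, as were Ugt2a3 (1.39), Ugt2b35 (0.71) and Ugt2b36 (0.71). Ugt1a1 was lower (-1.21, SE 0.27, adjusted p = 0.00884), so Ugt1a6a and Ugt1a1, which share a locus, differed in opposite directions. No skip1 induced library reached a dN90 induced one in Ugt1a1, and none was as low as a dN90 induced one in Ugt1a6a.

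Of the GST genes, Gstm4 (1.53, SE 0.24, adjusted p = 0.00029), Gstp1 (0.92, SE 0.22, adjusted p = 0.016), Mgst1 (0.82, SE 0.18, adjusted p = 0.00625) and Gstm1 (0.68, SE 0.18, adjusted p = 0.033) were higher in skip1 than in dN90 induced samples and the family median was 0.37. Both medians stayed above 0 under the 3 other scalings. Gstm4, a mu class gene, had 36.8, 29.7, 29.9, 27.2 and 29.8 in skip1 induced and 11.4, 14.8, 9.11 and 6.18 in dN90 induced samples, with no overlap. Sult1a1 was lower (-1.30, SE 0.19, adjusted p = 0.000103). Hepatocyte markers were higher too in 4 of 7 cases, endothelial markers in 3 of 6 and macrophage markers in 3 of 6, with none lower, and their part was not tested. Without skip1 induced replicates 1 and 2, 7 members were called: Gstm1, Gstp1, Ugt2a3, Ugt2b36 and Ugt3a1 were not, at 0.67, 0.71, 0.91, 0.64 and 1.25, while Ugt1a6a was at 1.51, Sult1a1 at -1.38 and Ugt1a1 at -1.66. Leaving out 1 library ended single calls: Gstp1 without dN90 induced replicate 2 or skip1 induced replicate 1, Ugt2a3 without dN90 induced replicate 3 or 4 or skip1 induced replicate 1 or 2, and Gstm1, Ugt2b35 and Ugt2b36 without several libraries.

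In skip1 over skip2 induced samples, Sult1a1 was the member called of 32 (3.53% of all genes, 3.09% higher and 0.44% lower), at -0.91 (SE 0.23, adjusted p = 0.0322). Its values were 186, 211, 183, 178 and 159.7 in skip1 induced and 322 and 369 in skip2 induced samples, with no overlap. The call ended without either skip2 induced replicate, without skip1 induced replicate 1, 4 or 5 and with depth as a covariate. Without skip1 induced replicates 1 and 2 it held at -0.99, and Ugt1a1 was then also lower, at -1.36 (adjusted p = 0.014). With all libraries Ugt1a1 was at -0.92 (SE 0.34, adjusted p = 0.146) and Ugt1a6a at 0.87 (SE 0.27, adjusted p = 0.0764). In skip2 over dN90 induced samples limma called 0 of 32 members (3.03% of all genes, 0.576% higher and 2.46% lower), with 6 below an unadjusted p of 0.05 and 0 called by voom. The difference between the 2 isoforms in their change from alone to induced was called for 0 of 32 members by limma (0.167% of all genes, 0.137% higher and 0.0303% lower) and by voom, with 4 at an unadjusted p under 0.05: Sult1a1 (-0.90), Ugt2b35 (1.06), Ugt1a6a (0.88) and Mgst1 (0.76). A p that misses the threshold with 2 skip2 libraries on each side does not show that the isoforms act alike.

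**Figure D4:**
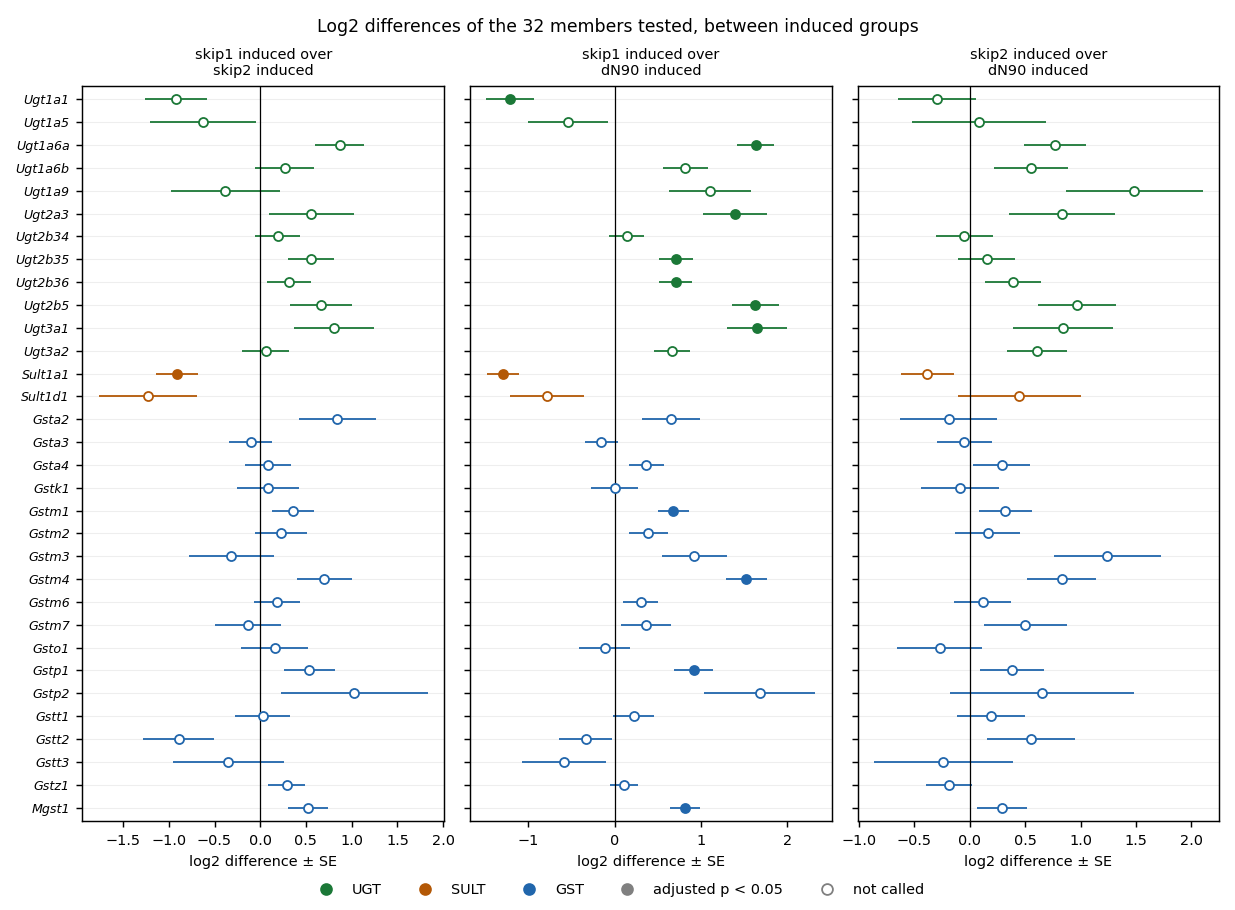
Log2 differences with their SE (horizontal bars) for the 32 members tested, between induced groups. Filled points passed an adjusted p of 0.05. In the middle panel, skip1 over dN90 induced, 6 UGT and 4 GST points are filled to the right, and Ugt1a1 and Sult1a1 are filled to the left.

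Livers with an isoform alone were set against wild type liver. For skip1 alone, limma called 0 of 32 members (0% of all genes) with 0 below an unadjusted p of 0.05, as voom did (0). For skip2 alone, limma and voom called 0 of 32 (0.0152% of all genes in limma), and 1 member, Ugt1a5, had an unadjusted p under 0.05, at 1.76 (SE 0.69, adjusted p = 0.942). Its values were 24.3 and 50.8 with skip2 alone and 11.3 and 8.31 in wild type livers. The wild type group has 2 libraries.

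The third question, on the subtypes, used z-scores, in which each gene was centred and scaled over its own libraries, so a difference is in SDs of that gene and gives no fold. The authors chose the genes in this table, which its name calls differentially expressed, and how they were chosen is not given. Calls among them may follow from that choice, so they are not fresh tests. Counts in it are no share of the transcriptome. Of the 20 members, 16 were higher in subtype A than in subtype B and none lower, beside 61.1% of the 1659 genes called, 40.3% higher and 20.9% lower. These were 8 of 10 UGT, 1 of 2 SULT and 7 of 8 GST genes, with a median difference of 0.35 over the members and 0.19 over all genes. Sult1a1, Gstm1, Gstm2 and Ugt1a1 are not in that table.

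Among the UGT genes, Ugt2b35 differed most (0.63, SE 0.12, adjusted p = 0.0011). It was at 0.0716, -0.171, 0.0182 and 0.180 in subtype A and at -0.861 at the lowest, -0.646 at the median and -0.180 at the highest of subtype B, beside 2.19, 1.87 and 1.91 with YAPS127A. The highest subtype B tumour, replicate 6, lay just below the lowest subtype A tumour. Ugt1a6b (0.52, SE 0.09, adjusted p = 0.000891) was at 0.113, -0.266, -0.136 and -0.0255 in subtype A and at -0.774 at the lowest, -0.613 at the median and -0.360 at the highest of subtype B, beside 2.25, 1.95 and 1.88 with YAPS127A. Ugt1a6a (0.46, SE 0.09, adjusted p = 0.00153) was at -0.0382, -0.233, -0.202 and -0.0164 in subtype A and at -0.702 at the lowest, -0.587 at the median and -0.409 at the highest of subtype B, beside 2.33, 1.90 and 1.89 with YAPS127A. Neither overlapped between the subtypes.

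Ugt2b36 (0.43, SE 0.09, adjusted p = 0.00192) was at 0.0792, -0.244, -0.280 and -0.116 in subtype A and at -0.658 at the lowest, -0.570 at the median and -0.407 at the highest of subtype B, beside 2.34, 1.83 and 1.958 with YAPS127A. Ugt3a2 (0.37, SE 0.08, adjusted p = 0.00256) was at -0.0120, -0.169, -0.347 and -0.204 in subtype A and at -0.674 at the lowest, -0.606 at the median and -0.316 at the highest of subtype B, beside 2.02, 1.92 and 2.23 with YAPS127A. The subtypes overlapped in Ugt3a2, through subtype A replicate 3 and subtype B replicate 6, and not in Ugt2b36. Ugt2b5 (0.33, SE 0.08, adjusted p = 0.0030) was at -0.0874, -0.306, -0.299 and -0.182 in subtype A and at -0.612 at the lowest, -0.562 at the median and -0.425 at the highest of subtype B, beside 2.31, 1.87 and 2.01 with YAPS127A. Ugt3a1 (0.32, SE 0.09, adjusted p = 0.00973) was at 0.104, -0.359, -0.325 and -0.301 in subtype A and at -0.575 at the lowest, -0.553 at the median and -0.417 at the highest of subtype B, beside 2.33, 1.92 and 1.94 with YAPS127A. Both were free of overlap.

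Ugt2a3 (0.30, SE 0.08, adjusted p = 0.00471) was at -0.0525, -0.367, -0.339 and -0.236 in subtype A and at -0.600 at the lowest, -0.557 at the median and -0.442 at the highest of subtype B, beside 2.25, 1.88 and 2.08 with YAPS127A. It too did not overlap. Ugt2b38 was not called (0.18, SE 0.09, adjusted p = 0.106), at -0.213, -0.434, -0.375 and -0.258 in subtype A and at -0.519 at the lowest, -0.503 at the median and -0.422 at the highest of subtype B, beside 1.69, 2.18 and 2.34 with YAPS127A. Ugt1a9 was not called either (0.11, SE 0.06, adjusted p = 0.0885), at -0.294, -0.440, -0.428 and -0.308 in subtype A and at -0.503 at the lowest, -0.491 at the median and -0.429 at the highest of subtype B, beside 1.98, 2.16 and 2.13 with YAPS127A. In both, subtype A replicate 2 lay below the highest subtype B tumour.

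Of the SULT genes, Sult1b1 was called (0.25, SE 0.09, adjusted p = 0.0226) and Sult5a1 was not (0.09, SE 0.19, adjusted p = 0.667). Sult1b1 was at 0.0428, -0.388, -0.400 and -0.332 in subtype A and at -0.575 at the lowest, -0.547 at the median and -0.423 at the highest of subtype B, beside 2.22, 2.14 and 1.84 with YAPS127A. Sult5a1 was at -0.286, -0.394, -0.390 and -0.385 in subtype A and at -0.471 at the lowest, -0.461 at the median and -0.416 at the highest of subtype B, beside 1.05, 2.49 and 2.47 with YAPS127A. Neither overlapped between the subtypes. The Sult1b1 call was lost without subtype A replicate 1, and the YAPS127A libraries of Sult5a1 spread more widely than those of any other member.

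Among the GST genes, Gstm4 differed most (0.83, SE 0.11, adjusted p = 0.000372). It was at 0.303, -0.0188, 0.0736 and 0.368 in subtype A and at -0.762 at the lowest, -0.672 at the median and -0.488 at the highest of subtype B, beside 2.35, 1.72 and 1.71 with YAPS127A. Every subtype A tumour was above every subtype B tumour. Gstk1 (0.49, SE 0.11, adjusted p = 0.00216) was at 0.117, -0.106, -0.327 and -0.0414 in subtype A and at -0.685 at the lowest, -0.572 at the median and -0.408 at the highest of subtype B, beside 2.03, 1.68 and 2.37 with YAPS127A. Gstt1 (0.46, SE 0.12, adjusted p = 0.00477) was at -0.217, -0.00495, -0.222 and 0.214 in subtype A and at -0.788 at the lowest, -0.540 at the median and -0.152 at the highest of subtype B, beside 2.21, 1.93 and 1.84 with YAPS127A. Gstt1 overlapped between the subtypes and Gstk1 did not.

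Mgst1 (0.39, SE 0.08, adjusted p = 0.00131) was at -0.0421, -0.229, -0.304 and -0.136 in subtype A and at -0.635 at the lowest, -0.608 at the median and -0.443 at the highest of subtype B, beside 2.002, 1.90 and 2.27 with YAPS127A. Gstz1 (0.38, SE 0.07, adjusted p = 0.000963) was at -0.0330, -0.224, -0.299 and -0.138 in subtype A and at -0.673 at the lowest, -0.564 at the median and -0.439 at the highest of subtype B, beside 2.04, 2.01 and 2.14 with YAPS127A. Neither overlapped. Gsto1 (0.24, SE 0.08, adjusted p = 0.0165) was at -0.0558, -0.432, -0.371 and -0.296 in subtype A and at -0.586 at the lowest, -0.531 at the median and -0.461 at the highest of subtype B, beside 2.25, 1.87 and 2.10 with YAPS127A. Gstp1, near the threshold (0.19, SE 0.08, adjusted p = 0.0498), was at -0.260, -0.352, -0.342 and -0.263 in subtype A and at -0.593 at the lowest, -0.486 at the median and -0.367 at the highest of subtype B, beside 1.78, 2.26 and 2.19 with YAPS127A. Gstt3 was not called (0.16, SE 0.07, adjusted p = 0.0617), at -0.241, -0.406, -0.455 and -0.228 in subtype A and at -0.529 at the lowest, -0.500 at the median and -0.414 at the highest of subtype B, beside 1.962, 2.02 and 2.27 with YAPS127A. Gstt3 overlapped between the subtypes, and Gsto1 and Gstp1 did not. The Gstp1 call was lost without any 1 of the tumours except subtype B replicate 6, and the Gsto1 call without subtype A replicate 1.

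All 20 members were lower in subtype A and in subtype B than in the YAPS127A samples (97.3% of all genes called for subtype A, 41.7% higher and 55.6% lower, and 99.6% for subtype B, 44.1% higher and 55.6% lower), and the 2 comparisons share those 3 samples. Every YAPS127A sample was at 1.05 or above for every member, and no tumour was above 0.37. Among hepatocyte markers, 1 of 5 in the table, Serpina1c, was higher in subtype A than B, and 2 of 2 endothelial markers, Clec4g and Kdr, and Clec4f of macrophages were higher too. Alb was not called (0.24). The part of these cells was not tested.

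**Figure D5:**
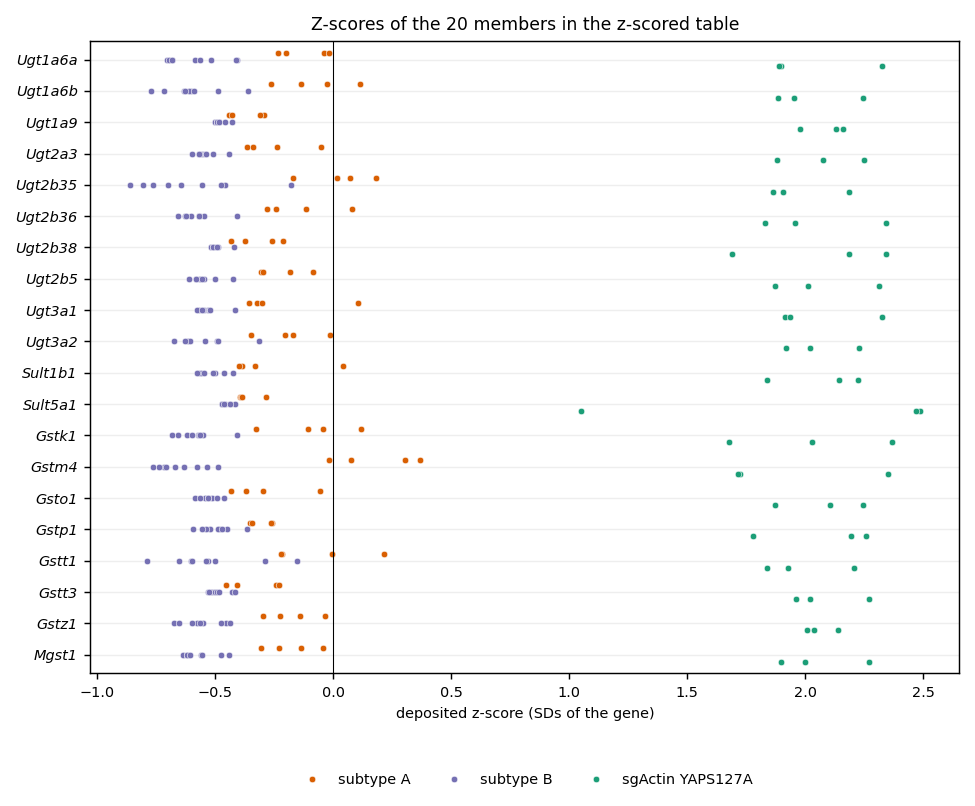
Deposited z-scores of the 20 members, in SDs of each gene, for each subtype A tumour (4), subtype B tumour (9) and YAPS127A sample (3). YAPS127A samples sit between 1.05 and 2.49, tumours between -0.86 and 0.37, and subtype A points mostly lie to the right of subtype B points.

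The supply of cofactors was lower in part. Counts of this and the following lists stand beside 14.7%, 14.9% and 37.5% of all genes called in skip1, skip2 and dN90 induced samples. Of 4 tested genes of UDP-glucuronic acid supply, 2 fell and none rose in skip1 induced samples: Ugdh, which makes UDP-glucuronic acid (-1.02, SE 0.21), and Slc35d1, its carrier into the endoplasmic reticulum (-0.75, SE 0.19). None was called in skip2 induced samples by limma (3 had an unadjusted p under 0.05), and in dN90 induced samples 3 fell, among them Ugdh (-0.93, SE 0.18). Of 4 sulfate genes, 3 fell in skip1 induced samples, the PAPS synthase gene Papss2 (-0.79, SE 0.20), Bpnt1, which clears the used donor (-0.65), and the sulfate carrier Slc26a1 (-0.63). In skip2 induced samples 1 fell, Bpnt1 (-1.53), and in dN90 induced samples 2, Bpnt1 (-0.65) and Slc26a1 (-0.52).

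Of 9 glutathione genes, 1 rose and 2 fell in skip1 induced, 0 and 2 in skip2 induced and 2 and 4 in dN90 induced samples. Cth, the last enzyme of cysteine synthesis from methionine, fell in each (-1.98, -1.64 and -1.70), while Slc7a11, the cystine importer, rose in skip1 (1.41) and dN90 induced samples (1.83). Gclc, which catalyses the first step of glutathione synthesis, fell in dN90 induced samples (-0.91). Of 7 NRF2 marker genes tested, Slc7a11 rose in skip1 induced samples, none was called in skip2 induced samples by limma (1 had an unadjusted p under 0.05), and in dN90 induced samples Slc7a11 rose and Gclc fell, 28.6% of the list, below the share of all genes.

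Of 13 transporters, 2 rose and 3 fell in skip1 induced, 1 and 7 in skip2 induced, and 3 and 7 in dN90 induced samples. The exporter Abcb1a rose in all 3 (2.43, 3.13 and 3.33) and Abcc4, which exports conjugates at the sinusoid, in skip1 (2.52) and dN90 induced samples (2.07). Abcb1a was at 7.45 to 31.4 over the induced libraries, against 1.15 to 3.40 over the livers. For Abcc4 these ranges were 8.03 to 23.4 and 0 to 5.37. Both genes passed the filter on the mean through their induced libraries. Their liver values are a few reads, so the size of both rises is uncertain and depends on the pseudocount. The canalicular exporters Abcb11, for bile salts (-1.71, -1.34 and -2.51), and Abcg2, for sulfates among others (-1.51, -2.16 and -2.21), fell in all 3. Slco1a1, an uptake carrier of organic anions, fell in skip2 (-3.04) and dN90 induced samples (-4.23).

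Of 11 genes of other conjugation and epoxide hydrolysis, 5, 6 and 8 fell in skip1, skip2 and dN90 induced samples and none rose. Nnmt, the nicotinamide methyltransferase (-2.18, -2.93 and -3.64), Gnmt, the glycine methyltransferase (-2.07, -2.24 and -1.37), and Ephx2, the soluble epoxide hydrolase (-1.40, -1.46 and -1.93), fell in all 3. Of 14 regulators, none was called in skip1 induced samples by limma (2 had an unadjusted p under 0.05), 1 rose in skip2 induced samples, and 4 rose and 1 fell in dN90 induced samples, 35.7% of the list, close to the share of all genes. The aryl hydrocarbon receptor gene Ahr rose in skip2 (1.41) and dN90 induced samples (1.06), where Nfe2l2, the gene of NRF2, also rose (1.35) and the bile acid receptor gene Nr1h4 fell (-0.84). Among 4 tested genes of a list on reversal by hydrolysis, limma called none in skip1 or skip2 induced samples. There, 1 and 0 had an unadjusted p under 0.05. Sumf1 fell in dN90 induced samples (-0.76). Not every gene of that list acts on conjugates itself.

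Over the 18 libraries, the genes whose log2 values were most like those of Ugt1a9 were Abcb11 (Pearson r = 0.948), Pdcd4 (0.944) and Mdh1 (0.931), and Gstp1 was the most alike member (0.919). For Sult1a1 they were Slc16a5 (0.989), Fmo2 (0.958) and Unc5b (0.942), with Gstm2 (0.674) the nearest member. For Gstp1 they were Atp5g1 (0.963), Serpina1c (0.962) and Cyp2d9 (0.959), with Mgst1 (0.935) the nearest member. These values describe 18 libraries that share the split into induced samples and livers.

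The 14 members below a mean of 10 were close to the limit of these libraries. Ugt2b38, which shares 37.4% of its 50-base stretches with other genes, was listed at 0 in 7 of 11 induced libraries and reached 7.40 in the others, against 3.47 to 32.8 in the 7 livers. Ugt1a10 was listed at 0 in all 11 induced libraries and in 3 of 7 livers, where it reached 4.62. Ugt2b37 reached 2.13 in induced libraries and 3.40 in livers. Ugt1a2 and Ugt2a2 did not exceed 4.08. Mgst3, a microsomal GST, went the other way, between 2.13 and 10.2 in the induced libraries, against 0 to 2.49 in the livers, where 3 of 7 listed it at 0. Gstp3 reached 17.4 in dN90 induced replicate 4 and no more than 6.91 in the livers. Gsta1, whose 50-base stretches occur in other genes in 90.5% of cases, lay between 0 and 22.8, and Gstm5 between 0 and 4.97. With no filter on the mean, limma called 2 of these 14 in skip1 induced samples (9.58% of all 14086 genes), Ugt2b38 lower (-2.10, SE 0.60, adjusted p = 0.0246) and Mgst3 higher (1.83, SE 0.52, adjusted p = 0.0243), and 0 in skip2 induced samples (8.21% of all), with 4 at an unadjusted p under 0.05. In dN90 induced samples it called 6 (24.8% of all): beside the 3 SULT genes, Ugt2b38 (-3.53, SE 0.52, adjusted p = 8.83e-06) and Ugt2b37 (adjusted p = 0.0245), listed at 0 in all 4, were lower and Mgst3 was higher (1.90, SE 0.45, adjusted p = 0.00239). These values rest on a few reads per library.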

How the data were processed

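Liver RNA of 34 libraries in 9 groups was used. Per the submitters' processing notes, reads went through FastQC, STAR and RSEM with build mm10 and then DESeq2, and no versions are given. The first table holds deposited normalized counts of 18 libraries, used as a signal and not as counts, since the authors had already divided by size factors, and about 60% of the recovered reads were whole within 0.001. The second holds deposited z-scores, a score per gene that the authors had centred and scaled over libraries. The genes in it were selected by the authors, the scale before z-scoring is not given in the sources used here, and its depth is unknown. The 2 tables were never compared with each other.

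From the normalized counts, log2(value + 1) was fitted with limma 3.58.1 in R 4.3.3 for rows with a mean of at least 10, with 1 coefficient per group and a trended prior, and p-values were adjusted by Benjamini-Hochberg over all 6592 rows. The non-tumour reference is the equal-weight mean of both isoforms alone and wild type. Z-scores were fitted likewise without a trend over 16 libraries of 3 groups. The fit of the normalized counts was tested on simulated data, and the fit of the z-scores was not. A call needs an adjusted p under 0.05. Every column was mapped to a sample (0 unmapped). The z-score table has 34 columns, and the 18 of the libraries with normalized counts were not compared in it. Alternatives were pseudocounts of 0.5 and 5, no filter, a minimum mean of 50, upper quartile, quantile and total-read (voom) scaling, other sample sets, array weights, depth as a covariate and single libraries left out.

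Values in every library are given, per family, for up to 4 members called higher and 4 lower whose higher group averaged 50 or more, for the 3 highest members and for every member in the z-score table. Members, lists and tests were chosen with earlier results of these data known, so no list is independent evidence. Replicate numbers follow accession order. Promoters are from RefSeq, GRCm38.p6, and gene coordinates from GENCODE on mm10. Levels per kb use the longest coding transcript in that annotation. Protein sequences were not used here, and 1 gene of the cofactor lists is not reported here.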

Additional observations from a re-analysis of the deposited data

Results flagged for a closer look

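Of 104 checks of a single sample against the rest of its group, 8 stood apart, where chance gives about 1 in 20. Gstp1 was at 317 normalized counts in dN90 induced replicate 2, against 497 to 527 in the other dN90 induced libraries. In subtype B replicate 6 the z-score was higher than in the other subtype B tumours for Gstk1 (-0.408, against -0.685 to -0.551), Ugt2b36 (-0.407, against -0.658 to -0.548), Ugt2b38 (-0.422, against -0.519 to -0.487) and Ugt3a1 (-0.417, against -0.575 to -0.524). That tumour was also the highest of subtype B for most other members. In subtype A replicate 1 the z-score was higher than in the other subtype A tumours for Sult1b1 (0.0428, against -0.400 to -0.332), Sult5a1 (-0.286, against -0.394 to -0.385) and Ugt3a1 (0.104, against -0.359 to -0.301).

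For Gsta4 both skip2 induced libraries were above the mean of their livers and every dN90 induced library below the mean of its own, by 0.0476 and -0.44 on average on the log2 scale. The skip2 induced values, 47.4 and 50.04, lay between those of their own livers, 52.0 and 42.6, which is no movement beyond their spread. Neither difference was called, and the difference between them was not tested.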

How the results depend on the processing

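Depth limits low members most: the 14 below a mean of 10 rest on a few reads. No paired analysis was possible because replicate numbers follow accession order and pair no samples. Without any 1 library the members called were 6 to 16 in skip1 induced samples over skip1 alone, 8 to 13 in skip2 induced over skip2 alone, 17 to 24 in dN90 induced samples over livers, 0 to 2 in skip1 over skip2 induced, 8 to 12 in skip1 over dN90 induced and 13 to 16 in subtype A over B. For skip1 over skip2 induced samples, 2 members were called with a mean of at least 50, quantile scaling, array weights, voom or without skip1 induced replicates 1 and 2, and 0 with depth as a covariate. For skip1 over dN90 induced samples, 7 were called without skip1 induced replicates 1 and 2. No called member changed direction under any alternative run. Over all genes, skip1 over skip2 induced samples gave 13 calls with depth as a covariate, 400 with array weights, 392 with voom and 10 without skip2 induced replicate 1, against 233, and skip2 over dN90 induced samples gave 7 with those 2 groups alone and 0 with depth as a covariate, against 200. dN90 induced samples gave 1499 with wild type as the only reference, against 2471. With that reference 16 of the 20 member calls held, and Gstk1, Gstp2, Gstt1 and Gstt3 were lost. The split of higher and lower calls was 160 and 170 with voom in skip1 over dN90 induced samples, against 209 and 96, and 267 and 125 with voom and 245 and 94 with quantile scaling in skip1 over skip2 induced samples, against 204 and 29. The causes were not tested.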

Other observations

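The cofactor genes in the z-score table ran higher in subtype A than in subtype B, where 61.1% of the 1659 genes in it were called, 40.3% higher. Ugdh and Slc35d1, of UDP-glucuronic acid supply, were both called (0.73 and 0.71), as were Bpnt1 and Slc26a1 of sulfate supply (0.44 and 0.74). Of 4 glutathione genes 3 were called, Gclc (0.76), Cbs (0.56) and Cth (0.31), and Slc7a11 was not (0.59). Of 9 transporters, 7 were higher and none lower, among them Abcb11 (0.55), Abcb1a (0.48) and Slco1b2 (0.38). Of 8 genes in the list of other conjugation and epoxide hydrolysis, 5 were higher and none lower. That is 62.5% of the list, close to the share of all genes called. They were led by Baat (0.52), which couples bile acids to amino acids, Glyat (0.46) and Tpmt (0.41). Of 4 regulators, Nr1h4 (0.42) and Ppara (0.31) were higher and Ahr was lower (-0.62). The authors selected the genes of this table, and the median difference of all 1659 was 0.19.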
